A study of Rattus norvegicus with 21 samples.

Results

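Plau encodes urokinase, Plat encodes tissue-type plasminogen activator and Plaur encodes the cell-surface receptor that holds urokinase. The members are all probes whose platform gene symbol is Plau, Plaur or Plat. There was 1 probe for each, 3 of 4148 named genes and 3 of the 4962 probes with a value on at least 1 array: 13B01 for Plau, 33H09 for Plaur and 12E12 for Plat. Both activators cleave plasminogen into plasmin, a protease that dissolves fibrin and cuts matrix proteins and some growth factor precursors. Urokinase bound to its receptor keeps this proteolysis at the cell surface, where migrating cells use it, and serpins inhibit both activators. In nervous tissue, tissue-type plasminogen activator is made by neurons and glia as well as by endothelium and is known for roles in synaptic plasticity and in the response to excitotoxic injury.

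Rat spinal cord RNA was hybridised to 21 arrays of 2 colours, 3 in each of 7 groups, with the sample's RNA beside a reference pool of culture RNA. Freshly dissected cord (the Uninjured group), unpooled cultures kept for 4 hr with PBS (Injured 4 hr) and 4 hr cultures treated with CKIN, MP or acetaminophen (Acet) were set against pooled PBS cultures; the labels do not say whether that pool was the same for all 5 groups, and a difference between groups reads as one of sample RNA only if it was. Indomethacin (Indo) cultures were set against pooled ETOH cultures and NS398 cultures against pooled DMSO cultures, so that drug and vehicle pool differ together. The labels give neither strain, age nor dose, nor whether replicates came from separate animals or cultures, so the p-values cover no more than the variation among these arrays, which may be technical. CKIN and MP are not spelled out in the labels; from knowledge of the field they are read as cytokine inhibitors and the glucocorticoid methylprednisolone. Indomethacin blocks both forms of cyclooxygenase, NS398 mainly the inducible form, and acetaminophen is a painkiller.

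Each value below is a log2 ratio, sample over pool, from which the median of its array was subtracted. A value of 0 therefore means the same ratio as the median probe. An array measured 3092 to 4916 probes, and 10 arrays had over 1100 missing spots: all of CKIN and Indo, 2 of MP, 1 of Acet and 1 of NS398. Before centring, the medians of the Uninjured arrays lay between -4.13 and -3.11, those of Injured 4 hr between -2.27 and -2.13, and those of the treatments between -1.63 and 0.69. Values within 5e-05 of the log2 of a ratio of whole numbers up to 20 made up 8.16% to 13.4% of each of the 15 treatment arrays and 0.323% to 1.18% of the others. This mark, whose origin is not given in the sources used here, parts the same arrays as every comparison of a treatment with Injured 4 hr, and its part in those results was not tested. Of the members' values 1 of Plau, 4 of Plaur and 1 of Plat were of this kind. The direction of the ratios was taken from the order of names in the titles. With that order Ccl4, an early chemokine, was higher in Injured 4 hr than in Uninjured by 3.75 ± 0.64 (SE; limma adjusted p = 0.000602) while Hspa1a, a heat shock chaperone, was higher by 3.60 ± 0.47 on probe 27C04 (adjusted p = 7.17e-05) and by 2.43 ± 0.49 on probe 52E12 (adjusted p = 0.00201).

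In the RefSeq rat annotation (GRCr8) Plau lies on chr15:3505485-3511987, Plaur on chr1:89181363-89196308 and Plat on chr16:75943061-76022037. The files do not say which part of each transcript the probes match. Promoter sequences are shown for Plau and Plaur, the receptor and its ligand, because both genes fell in Indo while their distance on the same array differed in NS398. Each is the 250 bases before the annotated gene start, 5′ to 3′ on the gene's strand, chr15:3511988-3512237 on the minus strand for Plau and chr1:89181113-89181362 on the plus strand for Plaur. Capitals mark GC boxes (GGGCGG, in either orientation) in Plau and the AP-1 motif (TGANTCA) in Plaur.
Plau: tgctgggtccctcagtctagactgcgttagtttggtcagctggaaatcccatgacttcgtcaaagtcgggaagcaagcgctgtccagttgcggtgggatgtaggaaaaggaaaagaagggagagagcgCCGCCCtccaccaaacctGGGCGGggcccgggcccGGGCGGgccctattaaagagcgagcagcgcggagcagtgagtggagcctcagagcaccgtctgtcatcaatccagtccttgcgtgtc
Plaur: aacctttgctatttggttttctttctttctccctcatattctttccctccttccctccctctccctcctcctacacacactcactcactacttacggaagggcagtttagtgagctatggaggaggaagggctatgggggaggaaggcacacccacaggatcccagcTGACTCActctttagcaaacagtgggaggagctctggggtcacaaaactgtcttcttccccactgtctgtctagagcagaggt
The Plau window holds 3 GC boxes, starting at positions -122, -104 and -87 from the gene start, and no AP-1 match. The Plaur window holds 1 AP-1 match, TGACTCA at positions -83 to -77, and no GC box. Both strands were searched. Of 33469 rat promoter windows of this length, 30.5% hold a GC box and 6.34% an AP-1 match. Neither window holds the CRE motif TGACGTCA, found in 1.59% of windows, or the TATA box letters TATAAA, found in 12.9%. These matches are descriptions of letters, and no binding was measured. Plat has no entry in the promoter table.

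Injured 4 hr was compared with Uninjured to ask what cutting and culture change. None of the 3 passed the threshold of an adjusted p of 0.05 in centred ratios: the differences were 0.76 for Plau, 1.01 for Plaur and, with a sign that turns in the other 5 scalings, -0.34 for Plat. Plau was at -0.66 and -0.16 on Uninjured arrays 1 and 3, with no value on array 2, and at 0.40, 0.32 and 0.32 on the Injured 4 hr arrays. Plaur was at -0.78 and -0.80 on the same Uninjured arrays, again with no value on array 2, and at 0.25, 0.30 and 0.12 in Injured 4 hr. For both probes all Injured 4 hr arrays lay above all measured Uninjured arrays. Plat was at 1.30, 2.18 and 1.76 in Uninjured and at 1.35, 1.80 and 1.07 in Injured 4 hr, and the groups overlapped.

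Plaur was higher by 1.01 ± 0.35 (SE, 3 against 2 arrays), a 2.01-fold difference with a 95% interval of 1.22 to 3.33, and an adjusted p of 0.058 in limma. In ratios corrected for a stand-in of probe brightness and for source plate, the difference was 1.33 with a limma adjusted p of 0.012. The stand-in is the mean Injured 4 hr ratio, so the correction itself brings that group's mean near 0 (-0.0017 for Plaur). Corrected ratios are therefore no independent check in any comparison with Injured 4 hr. The adjusted p of Plaur ran from 0.00158 to 0.611 over the 15 alternative settings, 5 of them past the threshold. Plau was higher by 0.76 ± 0.39 (adjusted p = 0.21), and 3 of its 15 alternatives passed. The Plat difference of -0.34 ± 0.51 (adjusted p = 0.691) changed sign in each of the other 5 scalings, where it lay between 0.47 and 1.39. Unadjusted, Plaur alone had a p under the threshold, at 0.00901. Over all 4821 probes 14.1% passed, 0.788% higher and 13.4% lower. Of those calls 5.57% were higher, against 99.4% in deposited ratios, 99.6% when centred on Gapdh, 89.7% after scale and 70% after quantile normalization and 34.7% in corrected ratios.

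**Figure D1:**
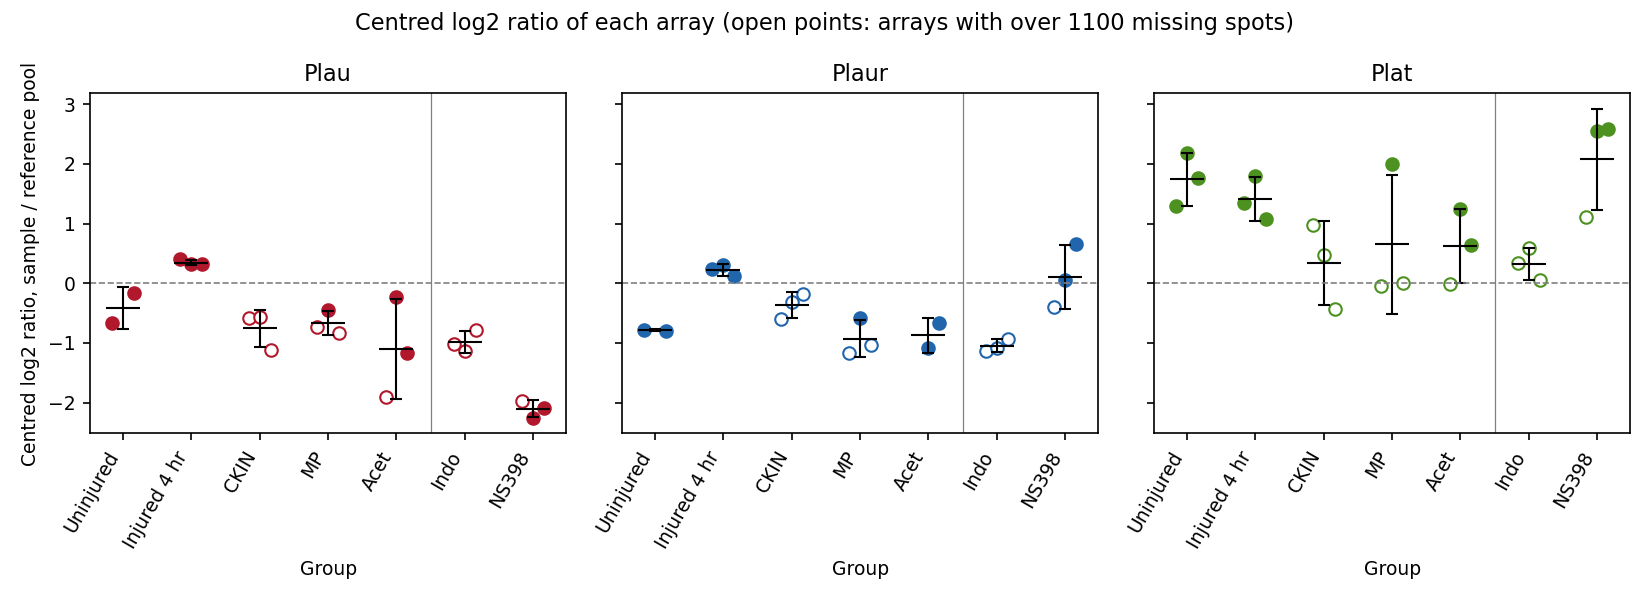
Centred log2 ratios of sample over reference pool (y axis) on each array of the 7 groups (x axis), 1 panel per gene; bars are the mean and SD of a group, open points are the 10 arrays with over 1100 missing spots, and the vertical line parts groups set against PBS pools (left) from Indo and NS398, which had other pools. The 3 NS398 arrays have the lowest Plau values of all 20 measured arrays (-2.26 to -1.97), while NS398 arrays 2 and 3 have the highest Plat values (2.55 and 2.58).

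Differences between 2 probes of the same array do not depend on how that array is centred. Plaur minus Plat averaged -1.19 ± 0.28 (SD, n = 3) in Injured 4 hr and -2.32 ± 0.34 (n = 2) in Uninjured. The 2 groups did not overlap, and the difference of 1.13 had a 2-sided exact permutation p of 0.1, the smallest that 10 arrangements allow (0.3 after Benjamini-Hochberg adjustment over 3 pairs). Plau minus Plat differed by 0.88 (exact p = 0.2) and Plau minus Plaur by -0.25 (exact p = 0.4). Plau minus Plaur was 0.12 and 0.64 in Uninjured and between 0.02 and 0.20 in Injured 4 hr.

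CKIN, MP and Acet were each set against the Injured 4 hr arrays to ask what the treatment changed in culture. These comparisons share the Injured 4 hr arrays. In centred ratios Plau was below every Injured 4 hr array on all 9 treated arrays, at -0.59, -0.56 and -1.11 in CKIN, at -0.74, -0.44 and -0.83 in MP and at -1.90, -0.22 and -1.17 in Acet. Acet array 2 was the one nearest to Injured 4 hr and Acet array 1, which had many missing spots, the lowest. In CKIN Plau fell by 1.10 ± 0.35 (SE; adjusted p = 0.0346), and in Acet it fell by 1.45 ± 0.35 (adjusted p = 0.0443). In MP the difference of -1.02 ± 0.35 did not pass (adjusted p = 0.126).

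Plau in CKIN was the 1 member called there, where 19.4% of all probes passed, 1.39% as rises and 18% as falls. Plau in Acet was likewise the 1 member called, where 1.23% of all probes passed, 0.0845% as rises and 1.14% as falls. The direction of these calls over all probes rests on the scaling. In CKIN 7.16% of the calls were higher in centred ratios, against 100% in deposited ratios, 95.8% on Gapdh, 39.3% in corrected ratios and 24.4% after quantile normalization. In Acet 6.9% were higher, against 100% in deposited ratios and on Gapdh, 20% in corrected ratios and 32.7% after quantile normalization. Leaving out 1 array took the 58 limma calls of Acet to 0 without Injured 4 hr array 2 or 3 (469 and 452 at an unadjusted p of 0.05), 1 without Injured 4 hr array 1, 3, 86 and 14 without Acet arrays 1, 2 and 3, and the 726 of CKIN to between 195 and 511. Cell markers fell beside Plau, and their part in its falls was not tested: in CKIN 5 of 8 oligodendrocyte, 3 of 8 astrocyte, 2 of 5 microglia and macrophage, 1 of 9 neuron and 1 of 7 meningeal probes, and in Acet 2 of 9 meningeal probes, of Col1a2 (-2.44) and Col1a1 (-1.56), and none of the other lists. Neither call held under every setting: in deposited ratios the signs turned (0.82 in CKIN and 0.48 in Acet), and centring on Gapdh gave 0.13 in CKIN and -0.75 in Acet with adjusted p of 0.851 and 0.642, the highest over the 17 alternatives of each. In corrected ratios, no independent check here because their stand-in is Injured 4 hr, Plau was at -0.77 (limma adjusted p = 0.281) and -1.19 (adjusted p = 0.112). Leaving out 1 array ended the call of Plau in CKIN for CKIN arrays 1 and 3 and any Injured 4 hr array (-1.19 to -0.92), and in Acet for Acet arrays 1 and 3 and any Injured 4 hr array (-1.46 to -1.05).

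Plaur was at -0.60, -0.31 and -0.18 in CKIN, at -1.17, -0.58 and -1.03 in MP and at -1.08 and -0.67 on Acet arrays 2 and 3, with no value on array 1. All of these lay below the Injured 4 hr arrays. The differences were -0.58 ± 0.31 in CKIN (adjusted p = 0.194), -1.15 ± 0.31 in MP (adjusted p = 0.0616) and -1.09 ± 0.35 in Acet (adjusted p = 0.126), and deposited ratios turned the sign of all 3, centring on Gapdh that of CKIN (0.65). In MP, where 2% of all probes passed (88, but 568 without MP array 2 and 3 to 9 without any other 1 of the arrays compared), no member did in limma, although Plau and Plaur had unadjusted p of 0.00845 and 0.0015. Without MP array 2, the array of that group with few missing spots, Plaur in MP was at -1.32 with an adjusted p of 0.0183.

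Plat was at 0.97, 0.47 and -0.42 in CKIN, at -0.05, 2.00 and 0.0011 in MP and at -0.0040, 1.24 and 0.64 in Acet. The CKIN arrays lay below the Injured 4 hr arrays, while MP and Acet overlapped with them. None of the differences passed: -1.07 ± 0.51 in CKIN (adjusted p = 0.146), -0.76 ± 0.51 in MP (adjusted p = 0.457) and -0.78 ± 0.51 in Acet (adjusted p = 0.55), with the sign turned in deposited ratios for all 3 and on Gapdh for CKIN. Within a group Plat was lower on arrays with many missing spots. In MP those arrays gave -0.05 and 0.0011 against 2.00 on the other, in Acet -0.0040 against 0.64 and 1.24, and in NS398 1.10 against 2.55 and 2.58. With these arrays as a block, Plat in CKIN was at 0.41 and in MP at 0.23.

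Among the 5 groups set against PBS pools, the order of the Plau means was Injured 4 hr, Uninjured, MP, CKIN and Acet, at 0.35, -0.41, -0.67, -0.76 and -1.10. Injured 4 hr lay apart and the other 4 overlapped. The Plaur means ran from 0.22 in Injured 4 hr over -0.36 in CKIN, -0.79 in Uninjured and -0.87 in Acet to -0.93 in MP. CKIN lay apart from both Injured 4 hr and Uninjured, while Uninjured, Acet and MP overlapped. The Plat means ran from 1.75 in Uninjured over 1.41 in Injured 4 hr, 0.65 in MP and 0.63 in Acet to 0.34 in CKIN, and all neighbours overlapped.

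**Figure D2:**
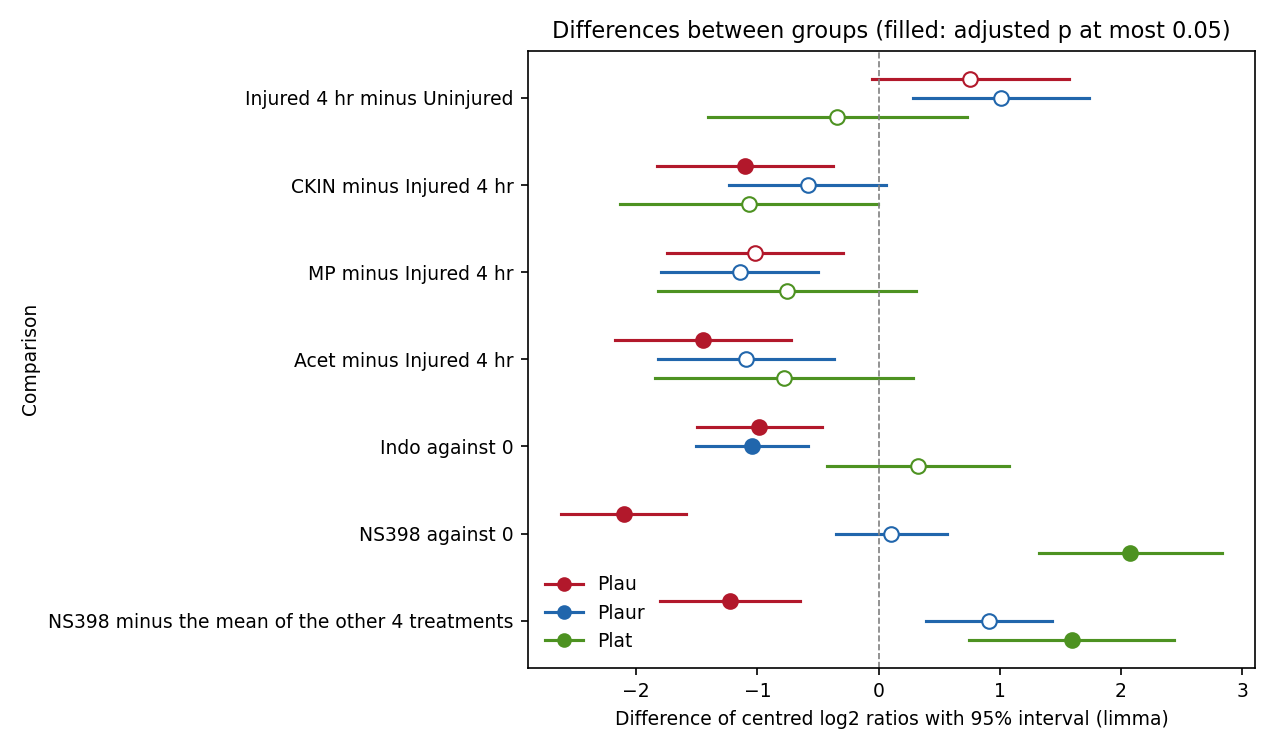
Differences of centred log2 ratios (x axis) for each comparison (y axis) with their 95% interval from limma; filled points passed an adjusted p of 0.05 over all probes of the comparison. Plau lies below 0 in every treatment shown and furthest in NS398 against 0 (-2.10), where Plat lies at 2.08; in deposited ratios Plau is above 0 in CKIN, MP and Acet, on Gapdh it is above 0 in CKIN (0.13), and Plat is above 0 in Injured 4 hr minus Uninjured in every other scaling.

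No unpooled ETOH or DMSO culture is among these samples, so Indo and NS398 were tested against 0, with the vehicle pool as 1 control sample, so the test leaves out the spread between vehicle cultures. The same test of the Injured 4 hr arrays, where PBS culture RNA met PBS culture RNA, called 22% of all probes, 20.9% higher and 1.07% lower. Plat was among them at 1.41 ± 0.36 (SE; adjusted p = 0.00544), and Plau and Plaur were not, at 0.35 and 0.22 (adjusted p = 0.4 and 0.561). A centred Plat ratio above 0 was thus measured without any treatment. Plat ranked among the higher probes by deposited ratio in Injured 4 hr, at the 89.3 percentile of 4879 probes, with Plau at 69.6 and Plaur at 65.4.

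In Indo Plau and Plaur fell and Plat did not pass. Plau was at -1.02, -1.14 and -0.79 and Plaur at -1.13, -1.08 and -0.93, so all 6 values lay well below 0. Plat was at 0.33, 0.59 and 0.05. Plau fell by 0.98 ± 0.25 (1.98-fold, 95% interval 1.38 to 2.82; limma adjusted p = 0.00912) and Plaur fell by 1.05 ± 0.22 (2.06-fold, 1.5 to 2.84; adjusted p = 0.00244). Plat differed by 0.32 ± 0.36 (adjusted p = 0.63), with the sign turned on Gapdh and in corrected ratios. These were 2 of 3 members called, all lower, where 13.1% of all probes passed, 2.52% as rises and 10.6% as falls. Of those calls 19.3% were higher, against 6.93% in deposited ratios, 0.846% on Gapdh, 31.8% after scale and 52.3% after quantile normalization and 33.6% in corrected ratios. The Plaur call held in all 12 alternatives (adjusted p from 0.000574 to 0.0371). The Plau call held in 9 of 12, ending in deposited ratios (-1.03, adjusted p = 0.088) and without Indo arrays 1 or 2 (-0.96 and -0.90), with adjusted p from 0.00178 to 0.088 over the 12.

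In NS398 the activators lay far apart. Plau was at -1.97, -2.26 and -2.08, lower in centred ratios than on any other array of the study. Plaur was at -0.41, 0.06 and 0.66, on both sides of 0. Plat was at 1.10, 2.55 and 2.58, and arrays 2 and 3 gave its highest values. Plau fell by 2.10 ± 0.25 (4.30-fold, 95% interval 3.01 to 6.14; adjusted p = 1.2e-05), the 48th lowest difference of 4485 probes tested. Plat rose by 2.08 ± 0.36 (4.22-fold, 2.51 to 7.12; adjusted p = 0.000463), the 24th highest. Plaur differed by 0.11 ± 0.22 (95% interval -0.35 to 0.57; adjusted p = 0.774).

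These 2 calls among 3 members stand against 21.9% of all probes called, 10.6% higher and 11.3% lower. Of those calls 48.6% were higher, against 2.66% in deposited ratios, 0.746% on Gapdh, 59.1% after quantile normalization and 38% in corrected ratios. They held in all 12 alternatives, with Plau from -3.46 to -1.82 in the 9 settings other than leaving out an array and Plat from 0.72 to 2.16. Plat was lower in corrected ratios, at 1.39, and on Gapdh, at 0.72, than in centred ones. The interval of Plat in NS398 (1.32 to 2.83) overlaps that of Plat in Injured 4 hr against 0 (0.65 to 2.16), and that difference was not tested, since the pools differ. The Plaur sign turned in deposited ratios (-0.79, adjusted p = 0.0387) and on Gapdh (-1.25, adjusted p = 0.00237), its adjusted p running from 0.00237 to 0.961 over 12 alternatives.

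Among the 15 arrays that share the mark of small whole-number ratios, each treatment was set against the mean of the other 4 treatments. NS398 stood out for both activators. The Plau difference was -1.23 ± 0.28 (2.34-fold, 95% interval 1.57 to 3.49, limma adjusted p = 0.0202), and its 3 NS398 values lay below all 12 values of the other treatments, the lowest of which was -1.90. Centred on Gapdh they did not: NS398 array 1, at -2.40, lay above MP array 2, at -3.07, and the Acet arrays, at -2.62 to -2.49. Plat was higher by 1.59 ± 0.41 (3.02-fold, 1.68 to 5.41; adjusted p = 0.0424), although MP array 2 at 2.00 and Acet array 2 at 1.24 lay above NS398 array 1 at 1.10. Plaur was higher by 0.91 ± 0.25 but did not pass (adjusted p = 0.0652), reaching 0.0497 in corrected ratios, within a range of 0.0311 to 0.453 over 24 alternatives. Thus 2 of 3 members were called where 2.23% of 3226 probes were, 1.43% higher and 0.806% lower; of those calls 63.9% were higher, against 11.1% in deposited ratios and 52.4% in corrected ones.

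The Plau call held in 21 of 25 alternatives (adjusted p from 0.00471 to 0.101), ending on Gapdh (-1.45), with only the groups compared in the fit and without NS398 arrays 2 or 3 (-1.15 and -1.24). The Plat call held in 12 of 25 (adjusted p from 0.00107 to 0.202). It ended with the arrays of many missing spots as a block (0.98, adjusted p = 0.0887), in deposited ratios (0.91), with only the groups compared in the fit (adjusted p = 0.137) and without any 1 of 10 arrays: CKIN 2 or 3, Indo 1 or 3, MP 1 or 3, Acet 1 or 3, or NS398 2 or 3 (1.34 to 1.61). In none of the other 4 treatments was a member called in this comparison, where 0.372% of all probes passed in CKIN, 0.031% in MP, 0.093% in Acet and 0% in Indo. At an unadjusted p of 0.05, limma had 1 member there, Plaur in Indo (-0.53 ± 0.25, unadjusted p = 0.0459, adjusted p = 0.579).

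**Figure D3:**
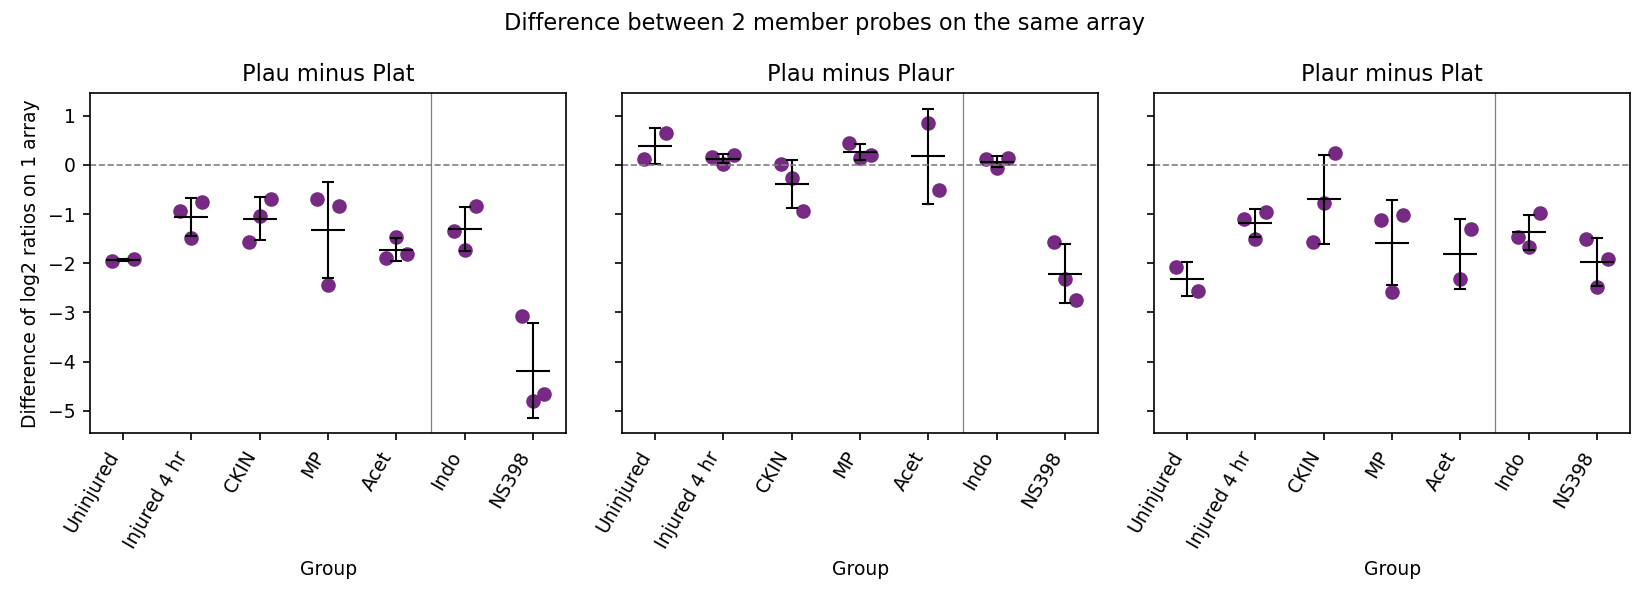
Difference between 2 probes of the same array (y axis, log2) in the 7 groups (x axis), with the mean and SD of each group; the vertical line parts groups set against PBS pools from Indo and NS398. Plau minus Plat lies between -4.80 and -3.08 on the NS398 arrays and no lower than -2.45 on any other array, and Plau minus Plaur between -2.75 and -1.57 against no lower than -0.93.

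The distance between Plau and Plat on the same array, which no centring alters, was also compared. This test and those of the other pairs were chosen after seeing the data. They reuse the member values given above, so their p-values add no independent support. Plau minus Plat was -3.08, -4.80 and -4.67 on the NS398 arrays and between -2.45 and -0.69 on the 12 arrays of the other treatments. The means were -4.18 ± 0.96 and -1.36 ± 0.56 (SD), a difference of -2.82 with a 2-sided exact permutation p of 0.0022, the smallest that 455 arrangements allow (0.00412 adjusted over 3 pairs). Plau minus Plaur was -1.57, -2.32 and -2.75 in NS398 and between -0.93 and 0.85 on 11 other arrays. The means differed by -2.22 (exact p = 0.00275, the smallest that 364 arrangements allow; 0.00412 adjusted). Plaur minus Plat overlapped between the sets and differed by -0.65 (exact p = 0.195). These tests treat arrays of 4 treatments as exchangeable, so their p-values do not measure the variation between treatments. The drug cannot be told apart from its DMSO pool.

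**Figure D4:**
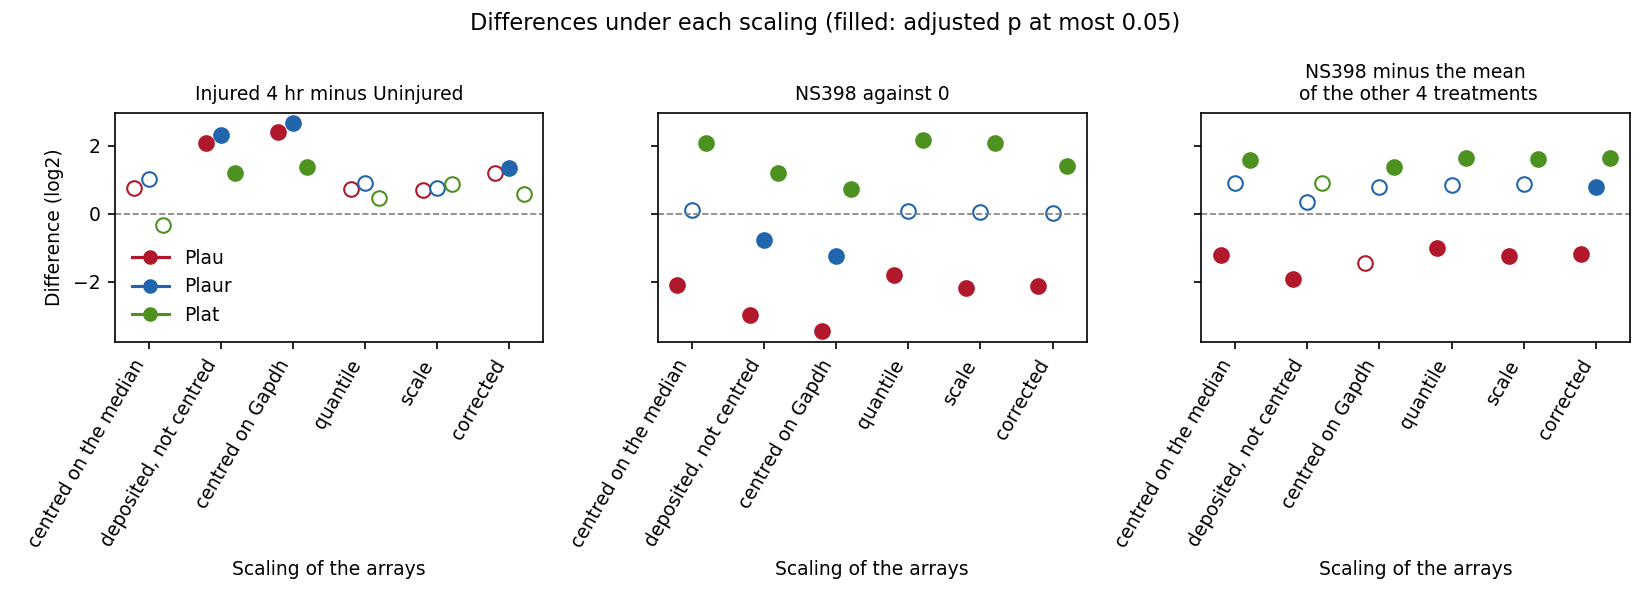
Difference in log2 units (y axis) of each probe under 6 scalings of the arrays (x axis) in 3 comparisons; filled points passed an adjusted p of 0.05. In NS398 against 0, Plau stays below and Plat above 0 under every scaling, while Plaur turns from 0.11 to -0.79 in deposited ratios and -1.25 on Gapdh; in Injured 4 hr minus Uninjured, Plat is below 0 only when arrays are centred on their median.

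Some markers of meningeal and connective tissue and of Schwann cells were higher in NS398 too. Bulk RNA cannot tell apart more cells of a type from more RNA per cell. Of 6 meningeal and connective tissue probes tested in NS398 against the other treatments, 3 were higher and none lower, with a median of 1.63 against 0.03 over all probes. Dcn, a collagen-binding proteoglycan, was higher by 2.42 (adjusted p = 0.00119), Col1a2, a chain of type I collagen, by 2.33 (adjusted p = 0.00119) and Vim, a filament protein also made by astrocytes, by 2.58 (adjusted p = 0.00475). The tested probes of Fn1, Col3a1 and Col1a1 were not called, and their NS398 values overlapped those of the other treatments. Fn1 lay between 0.10 and 1.36 in NS398 and between -0.46 and 2.39 on the other treatment arrays. Col3a1 lay between 0.05 and 0.76 and between -0.14 and 1.22 in the same order. Col1a1 was at 0.55 and 1.08 on NS398 arrays 2 and 3 and between -1.08 and 1.29 on the others. The mean over the measured probes of that list, up to 9 on an array, lay between 1.26 and 1.69 in NS398 and between -0.71 and 1.12 on the other treatment arrays. The probes averaged differ between arrays with missing spots. For Dcn, Col1a2 and Vim, MP array 2 (2.45, 1.24 and 3.20) lay above NS398 array 1 (2.24, 0.88 and 2.01). The mean over the measured Schwann cell probes, up to 4 on an array, lay between 1.29 and 1.39 in NS398 and between -1.0 and 0.91 on the other treatment arrays. The part of these cells in the Plat result was not tested. Of 2 Schwann cell probes tested 1 was higher, and of 9 neuron probes 1 was lower, with a median of -0.81. No astrocyte (8 tested), oligodendrocyte (8), microglia and macrophage (5) or blood and granulocyte (2) probe was called in limma. At an unadjusted p of 0.05, 1 oligodendrocyte probe was lower, and 1 microglia and macrophage and 1 blood and granulocyte probe were higher. Over all probes 1.43% were called higher and 0.806% lower. Of the endothelial markers, another source of Plat, 0 of 4 probes were called in limma, and 0 had an unadjusted p under 0.05. In NS398 against 0, 1 of 6 endothelial probes was higher and 1 lower, where 10.6% and 11.3% of all probes were. The part of endothelium in the Plat result was not tested.

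The probes whose 7 group means followed each member most closely were taken from 2846 probes with values in every group. For Plat these were Ocm (Pearson r = 0.983), Vim (0.973), Nbl1 (0.957), Ldha (0.951) and Ddx46 (0.942). For Plau they were Tnfrsf4 (0.961), Myl3 (0.905), Wnt4 (0.901), Gng12 (0.896) and Tuba1a (0.896), and for Plaur Stc1 (0.976), Col5a3 (0.975), Chrm1 (0.960), Il6r (0.941) and Klhl41 (0.936). These are descriptions over 7 points that share arrays and pools. Among the members themselves r was 0.59 for Plaur and Plat, 0.04 for Plau and Plaur and -0.15 for Plau and Plat.

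The rest of the plasminogen system was read from 6 lists of 79 genes, 58 of them on the array. Between Injured 4 hr and Uninjured, 1 of 62 probes rose and 10 fell, 1.61% and 16.1% beside 0.788% and 13.4% of all probes, with a median of 0.19 against -0.05 over all probes. The list's share called was thus near that of all probes. Mmp12, a macrophage elastase, rose: it was at -1.10 and -1.95 in Uninjured and at -0.10, -0.46 and 0.23 in Injured 4 hr, a difference of 1.41 ± 0.43 (adjusted p = 0.0455; 0.101 in corrected ratios).

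Of 7 inhibitor probes 2 fell, both of Serpine2, protease nexin 1, which inhibits thrombin and the activators. Probe 26F03 was at 3.29, 3.37 and 3.37 in Uninjured and at 1.04, 0.38 and 0.59 in Injured 4 hr, and probe 50C01 at 2.90, 2.93 and 2.95 and at 0.53, 0.28 and 0.36. The differences of -2.68 ± 0.39 and -2.54 ± 0.43 passed (adjusted p = 0.000175 and 0.000577) and were -2.00 and -2.04 in corrected ratios. Serpini1, the neuronal inhibitor neuroserpin, differed by -0.63 ± 0.56 (adjusted p = 0.477). Of 10 probes for plasminogen, fibrin and binding proteins 3 fell: Anxa2, which binds plasminogen and Plat at the cell surface, at -1.89 ± 0.40, the plasminogen-binding enolase Eno1 at -2.08 ± 0.45 and probe 45E08 of the fibrinogen chain Fgb at -1.70 ± 0.48. The other Fgb probe, 45E09, was not called and went the other way, averaging 0.44 in Uninjured and 0.66 in Injured 4 hr. Plg itself, plasminogen, differed by 0.81 ± 0.38 (adjusted p = 0.162).

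The others that fell were Vegfa, an angiogenic growth factor, at -2.89, the metalloproteinase inhibitor Timp2 at -2.13, the thrombin receptor F2r at -1.84, the receptor chaperone Lrpap1 at -1.34 and the lipoprotein receptor Vldlr at -0.99. Timp1, another metalloproteinase inhibitor, was higher by 1.17 ± 0.52 (adjusted p = 0.138; 1.97 and 0.012 in corrected ratios). Mmp9, gelatinase B, differed by 0.81 ± 0.37 (adjusted p = 0.157), and F3, tissue factor, by -0.21 ± 0.31 (adjusted p = 0.677). These directions are relative to the array median: of the 11 probes 6 kept their sign in the other 5 scalings, and 6 stayed called in corrected ratios, where Lrpap1 (-0.27, adjusted p = 0.785), Vldlr (-0.39, 0.357), Fgb (-0.92, 0.242), Timp2 (-1.07, 0.0528) and Mmp12 did not pass. Lrpap1, Fgb and Vldlr turned on Gapdh, Vldlr also in deposited ratios, and Eno1 and Anxa2 after scale normalization. Under quantile and scale normalization 0 list probes passed in limma, where 20 and 29 of all probes did, and in deposited ratios and on Gapdh 38 and 41 list probes did. Neuron markers, with 5 of 9 probes lower, and astrocyte markers, with 4 of 8, moved with these falls, and their part in the result was not tested.

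Against Injured 4 hr, CKIN had 1 list probe higher and 6 lower of 41 (2.44% and 14.6%, beside 1.39% and 18% of all probes), MP 0 of 52 (8 at an unadjusted p of 0.05, limma) and Acet 1 lower of 59 (1.69%, beside 1.14%). These shares lie near those of all probes, and the cell markers that fell in CKIN and Acet, given with Plau, moved with these falls too. Timp1 fell by 2.04 ± 0.46 in CKIN (adjusted p = 0.0083) and fell by 2.18 ± 0.46 in Acet (adjusted p = 0.0297). In MP Timp1 was at -1.44 ± 0.46 (adjusted p = 0.102). The 1 riser in CKIN was the fibrinogen chain Fga, at 1.22 ± 0.40, and the other falls were Grin1, an NMDA receptor subunit, at -1.88, Eno1 at -1.70, S100a10, the partner of Anxa2, at -1.39, Timp2 at -1.17 and the thrombin-binding receptor Thbd at -1.02. Of these 7 CKIN calls 2, Timp1 and Fga, kept their sign in the other 5 scalings. In corrected ratios 0 list probes passed in limma in CKIN and in Acet, where 28 and 35 of all probes did.

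In Indo against 0, 1 list probe rose and 5 fell of 46, 2.17% and 10.9% beside 2.52% and 10.6% of all probes, so the shares were near the background. Plg rose, at 0.79, 1.03 and 1.76, by 1.19 ± 0.27 (adjusted p = 0.00396). Klkb1, plasma prekallikrein, fell, at -1.17, as did Met, the receptor of hepatocyte growth factor, at -0.98, Vegfa at -0.96, Serpine2 probe 50C01 at -0.93 and Thbd at -0.91. All 6 kept their sign in the other 5 scalings, but 2 of 6, Plg and Serpine2, stayed called in corrected ratios. There Vegfa was at -0.47 (adjusted p = 0.272), Met at -0.64 (0.19), Klkb1 at -0.70 (0.249) and Thbd at -0.30 (0.449). The other Serpine2 probe was at 0.11 ± 0.28 (adjusted p = 0.841).

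In NS398 against 0, 6 list probes rose and 3 fell of 48, 12.5% and 6.25% beside 10.6% and 11.3% of all probes. Fgb probe 45E09 rose by 1.86, S100a10 by 1.25, Vtn, the matrix protein vitronectin, by 1.16, Timp1 by 0.99, the metalloproteinase Adamts1 by 0.93 and the growth factor receptor Egfr by 0.86. F2rl1, a protease-activated receptor, was at -1.74, Hgf, which the activators can process, at -1.17 and the fibrinogen chain Fgg at -1.11. Fgb probe 45E09, Vtn and F2rl1 had values on 2 NS398 arrays. The other Fgb probe, 45E08, averaged 0.50 on 3 arrays and was not called. The signs of S100a10, Timp1, Adamts1 and Egfr turned on Gapdh, that of Egfr also in deposited ratios. In corrected ratios 6 of the 9 stayed called, and Egfr (0.16, adjusted p = 0.716), Hgf (-0.74, 0.294) and Fgg (-0.52, 0.33) did not. Of 8 meningeal and connective tissue probes 4 rose in this comparison, as did 2 of 4 Schwann cell and 2 of 3 blood and granulocyte probes. The neuron, astrocyte, oligodendrocyte, microglia and macrophage, and endothelium lists had 1 probe higher each, and endothelium also had 1 lower. The part of these cells in the list result was not tested. Against the other 4 treatments 2 of 34 rose. Both kept their sign in the other 5 scalings. Timp1 was at 0.12, 1.34 and 1.49 in NS398 and between -2.54 and -0.012 on the 12 other arrays, which lay below all 3, a difference of 2.32 ± 0.37 (adjusted p = 0.00119). Adamts1 was at 1.23, 0.66 and 0.88 against a highest other value of 0.49, a difference of 1.02 ± 0.27 (adjusted p = 0.0492). Over the list the median was -0.01 beside 0.03 over all probes.

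**Figure D5:**
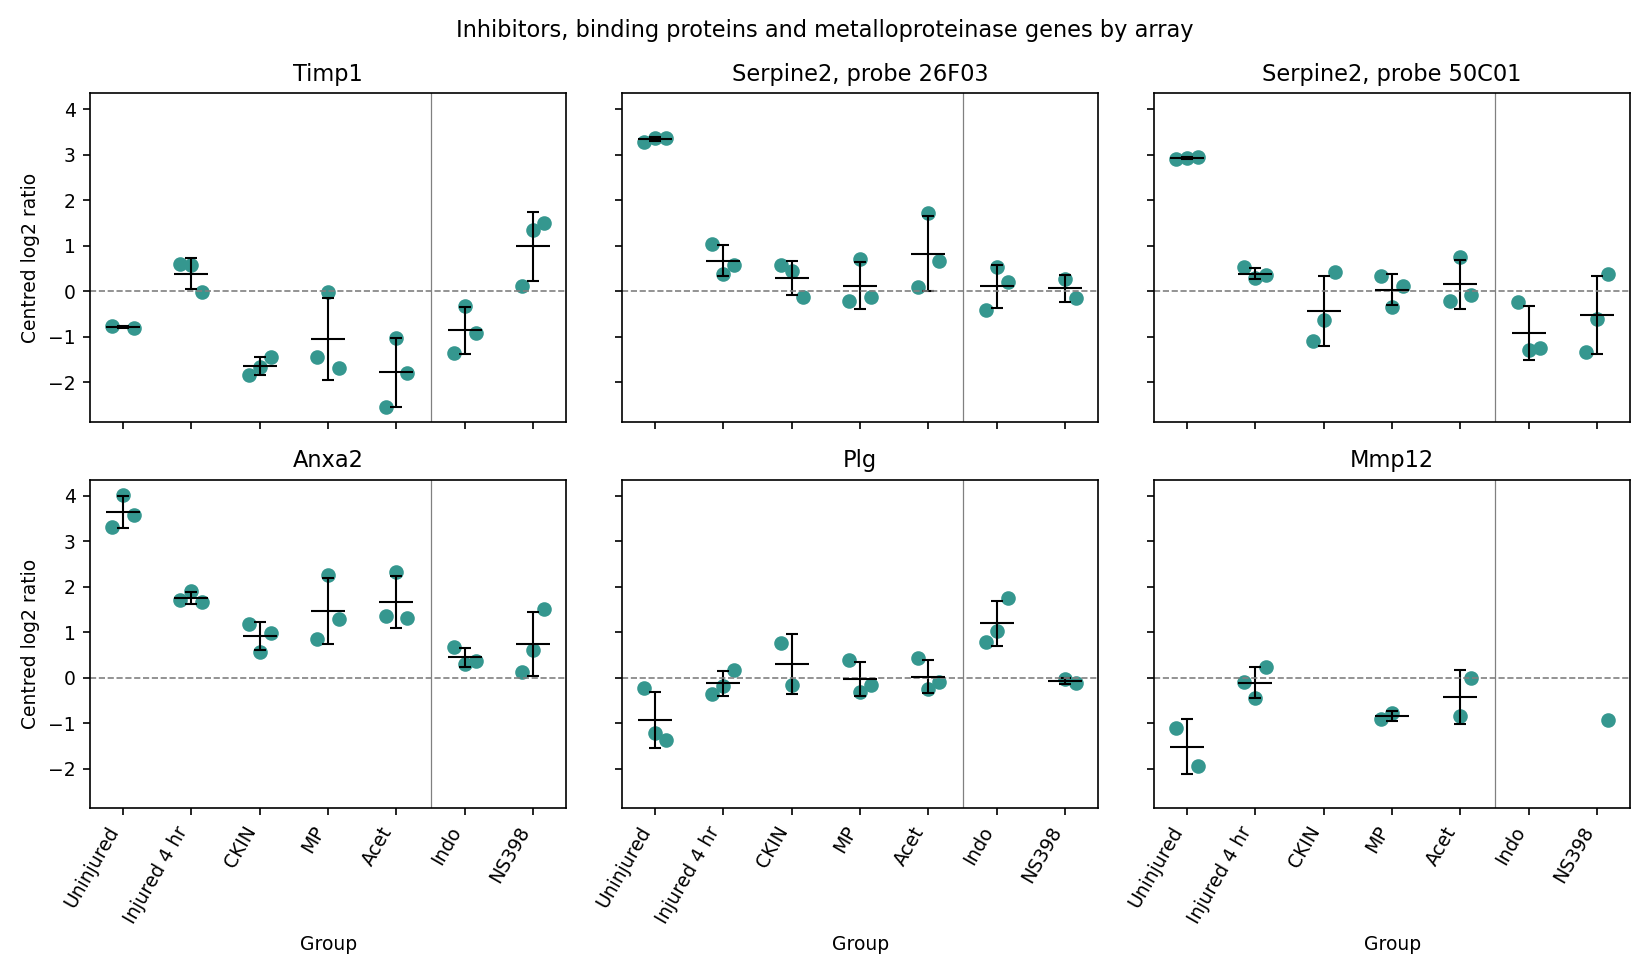
Centred log2 ratios (y axis) on each array of the 7 groups (x axis) for 5 genes of the plasminogen system, with the mean and SD of each group; the vertical line parts groups set against PBS pools from Indo and NS398. Both Serpine2 probes lie between 2.90 and 3.37 in Uninjured and no higher than 1.73 elsewhere, and all 3 NS398 arrays lie above the other treatment arrays for Timp1.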

How the data were processed

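The authors deposited 1 table of log2 ratios of sample over reference pool for 5376 probes on 21 arrays; that the base is 2 was read from the values. No source used here states the dyes, scanner, background correction or spot filter. Blank cells were treated as missing. The 53 Gapdh spots were averaged, and probes of other genes were kept apart. Symbols came from the platform annotation and were updated by gene identifier for 4375 of the 4423 probes with 1 symbol; 2 had several, and 545 measured probes had none. From each array the median over its measured probes was subtracted. All arrays entered 1 limma 3.58.1 fit (R 4.3.3) with 1 coefficient per group, and p-values were adjusted by Benjamini-Hochberg over all probes of a comparison, with a threshold of 0.05. A probe needed 2 of 3 values in each compared group.

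Corrected ratios subtract a loess curve (span 0.4) on the mean Injured 4 hr ratio, a stand-in for brightness, and centre each source plate of at least 20 probes. The stand-in is a ratio and not an intensity, and in comparisons with Injured 4 hr it comes from a compared group. Named genes were all members, list probes that passed and the 5 probes most like each member. Serpine2, Serpini1, Plg, Timp1, F3, Anxa2 and Mmp9 were named in any case in Injured 4 hr minus Uninjured. In the other comparisons those of them that did not pass are given only in part. On simulated data a log2 change of 2 was recovered for 63% of changed probes in Injured 4 hr minus Uninjured (4821 probes) and 93% in NS398 against 0 (4485 probes), and a change of 1 for 9% and 43%. False calls made up 6.49% and 4.9% of the calls. The simulated noise was independent between probes, and in tests against 0 unchanged probes had a true ratio of 0. In the data Injured 4 hr against 0 called 22% of probes, so these rates do not show how far a test against 0 can be trusted. Precision is limited by the number of arrays. Members, lists and settings were chosen with earlier results of these data known. Sequences and coordinates are from RefSeq, GRCr8.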

Additional observations from a re-analysis of the deposited data

Results flagged for a closer look

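Plau and Plat differed between NS398 and the mean of the other 4 treatments in the fit's own test of that difference, in opposite directions: Plau by -1.23 ± 0.28 (SE; limma adjusted p = 0.0202) and Plat by 1.59 ± 0.41 (adjusted p = 0.0424). In centred ratios Plau was lower on 3 of 3 NS398 arrays than on any of the 12 other treatment arrays, and Plat was higher than on any of those 12 on 2 of 3. Centred on Gapdh, Plau on NS398 array 1, at -2.40, lay above MP array 2, at -3.07, and the Acet arrays, at -2.62 to -2.49. Drug and vehicle pool cannot be told apart in this comparison.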

How the results depend on the processing

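Limits first: there are 3 arrays a group, spot intensities are not given, the vehicle pools are single samples, and the treatment arrays stand apart from the others in scale and in the share of small-number ratios. The labels do not say whether the replicate numbers pair the samples, and correlations between arrays cannot exclude it. Same-numbered arrays correlated between -0.33 and 0.60 in their deviations, 9 of 63 pairs over 0.1, and different-numbered arrays between -0.56 and 0.51, 15 of 126 pairs over 0.1. The medians were 0.005 and 0.001, and 8 of 21 arrays correlated best with their own number. With the replicate number as a block no call of a member changed, and the list count in NS398 against the other treatments went from 2 to 1; the fitted differences were 0.68, 0.98 and -0.34 for Plau, Plaur and Plat in Injured 4 hr minus Uninjured, and all probes called in Acet went from 58 to 90.

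Deposited ratios gave in Injured 4 hr minus Uninjured 2.08 (Plau), 2.33 (Plaur) and 1.19 (Plat), in CKIN minus Injured 4 hr 0.82, 1.34 and 0.86, in MP 0.97, 0.84 and 1.23, in Acet 0.48, 0.36 and 1.15, Plau in Indo -1.03, Plaur in NS398 -0.79 and Plat in NS398 against the other treatments 0.91, with list counts of 38, 22, 37, 39, 0 (Indo) and 23 (NS398). Centring on Gapdh gave 2.41, 2.66 and 1.39 in Injured 4 hr minus Uninjured and 0.13, 0.65 and 0.17 in CKIN, Plau in Acet -0.75, Plat in Indo -0.35, Plaur in NS398 -1.25 and, against the other treatments, Plau in NS398 -1.45, Plau in Acet -0.31, Plaur in Indo 0.20 and Plat in Indo 0.034; list counts were 41, 0 (CKIN), 0 (Acet), 10 (Indo), 35 (NS398), and 1 each for Acet and NS398 against the others. Plat in Injured 4 hr minus Uninjured was 0.47 after quantile and 0.87 after scale normalization. List counts after quantile normalization were 0 (injury), 2 (Acet), 10 (Indo) and 1 (CKIN against the others). Scale normalization gave Plat in CKIN -1.56, Plau in MP -1.13 and Plaur in MP -1.22, and list counts of 0 (injury), 11 (CKIN), 4 (MP), 5 (Acet), 10 (Indo) and 1 (CKIN against the others). Corrected ratios gave Plaur 1.33 and Plat 0.58 in the injury comparison, Plau in CKIN -0.77 and in Acet -1.19, Plat in Indo -0.19 and, against the others, Plau in Acet -0.014 and Plaur in NS398 0.80; list counts were 0 (CKIN), 0 (Acet), 2 (Indo) and 1 (CKIN against the others).

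With only the groups compared in the fit, Plau and Plaur in the injury comparison (0.76 and 1.01) and Plat in CKIN (-1.07) passed, Plau in Acet (-1.45) and Plau and Plat in NS398 against the others (-1.23 and 1.59) did not, and list counts were 21 (injury), 1 (Indo), 0 (NS398) and 1 (NS398 against the others). With arrays of many missing spots as a block, Plaur in the injury comparison passed (1.01), Plau in CKIN (-0.66) and Acet (-1.30) and Plat in NS398 against the others (0.98) did not, Plat in CKIN was 0.41 and in MP 0.23, Plaur in CKIN 0.061, and against the others Plat was 0.033 in CKIN and 0.0165 in Indo and Plau in Acet -0.16; list counts were 0 (CKIN), 1 (Acet against the others) and 1 (NS398 against the others). This block could not be fitted for the tests against 0. Against 0 in place of Injured 4 hr, Plat was 0.34 (CKIN), 0.65 (MP) and 0.63 (Acet), Plau in MP -0.67, Plaur in MP -0.93 and in Acet -0.87, and list counts were 10 (MP) and 14 (Acet). With at least 1 value per group the list count in NS398 against the others was 1. Where a probe lacked 3 values in a group, the stricter filter gave no value for it. The cause of these changes was not tested.

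Over the alternatives other than leaving out an array, all probes called ran from 20 to 2903 in the injury comparison (682 in centred ratios), 5 to 2170 in CKIN (726), 3 to 3160 in MP (88), 5 to 3363 in Acet (58), 274 to 877 in Indo (498), 125 to 3484 in NS398 (982) and 26 to 190 in NS398 against the others (72). Without 1 array they ran from 346 to 492, 195 to 511, 3 to 568, 0 to 86, 310 to 411, 519 to 998 and 53 to 94 in the same order.

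Leaving out each array in turn gave these ranges. Injury comparison: Plau 0.51 to 1.01, Plaur 0.97 to 1.06, Plat -0.56 to -0.12, list count 6 to 8. CKIN: Plau -1.20 to -0.92, list count 3 to 5. MP: Plaur -1.32 to -1.02, list count 0 to 3. Acet: Plau -1.89 to -1.05, list count 0 to 1. Indo: Plau -1.08 to -0.90, list count 1 to 4. NS398: Plaur -0.17 to 0.36, list count 1 to 7. Against the others: Plau in NS398 -1.33 to -1.12, Plaur in NS398 0.63 to 1.16, Plat in NS398 1.34 to 2.08, list count in NS398 1 to 2, Plat in MP -0.86 to 0.16, Plau in Acet -0.41 to 0.43 and Plat in Acet -0.53 to 0.093. Within arrays, Plau minus Plaur in the injury comparison ran from -0.51 to 0.0084, and in NS398 Plau minus Plat from -3.37 to -2.51 and Plau minus Plaur from -2.54 to -1.95.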
